A study of Mus musculus with 14 samples.

Results

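Ccr4, Ccr8, Ccr6, Cxcr4 and S1pr1 encode 5 homing receptors of regulatory T cells. Each gene was represented by 1 fixed window of the mouse genome build mm39, and every peak that overlapped a window was a member. The windows were chr9:114300000-114350000 for Ccr4, chr9:119900000-119945000 for Ccr8, chr17:8430000-8500000 for Ccr6, chr1:128495000-128540000 for Cxcr4 and chr3:115480000-115530000 for S1pr1. The 10 deposited peak lists held 195 peaks in these windows, of 309136 peaks in all. The window positions were not checked against an mm39 annotation, so no peak below is called a promoter, an exon or an intron, and a window can hold sequence of a neighbouring gene.

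The study profiled histone marks in regulatory T cells by CUT&Tag, in which an antibody brings a transposase to marked chromatin and the released fragments are sequenced. Acetylation at H3K27 (H3K27ac) is found at promoters and enhancers in use, whereas trimethylation at the same residue (H3K27me3) is written by Polycomb complexes at silenced genes. Both groups were chimeras. Controls are labelled Foxp3YFPcre;wt and knockouts, with Slc31a1 deleted, are labelled Foxp3YFP-Slc31a1△;wt, and the labels do not spell out which cells the suffix wt refers to. Both labels name a Foxp3-YFP allele, and the Cre of the control allele is driven by Foxp3, the gene that defines this lineage. Slc31a1 encodes CTR1, the high-affinity copper importer of the plasma membrane. The cells were sorted by FACS, with 140000 cells per sample. H3K27ac was mapped in 3 control and 3 knockout samples and H3K27me3 in 2 and 2, while 4 IgG samples (3 control, 1 knockout) were not analysed here. Age and treatment of the animals are not given in the sources used here. The labels number the chimeras, with H3K27ac from chimeras 2, 3 and 4 of each genotype and H3K27me3 from chimeras 1 and 2. H3K27ac library 1 and H3K27me3 library 2 of each genotype therefore carry the same chimera number. The labels do not say whether a number stands for 1 animal or a pool, so a p-value measures only the spread between these samples. In sorted bulk cells, fewer cells that bear a mark and less mark per cell cannot be told apart. The identity of the cells was not checked against lineage markers, because no gene positions in mm39 were used.

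Homing receptors are G protein-coupled receptors that steer lymphocytes along gradients of chemokines or lipids. CCR4 binds CCL17 and CCL22 and CCR8 binds CCL1, and both are typical of regulatory T cells that enter skin and inflamed tissue. CCR6 follows CCL20 to mucosal surfaces and sites of inflammation, CXCR4 responds to CXCL12 and retains cells in bone marrow, and S1PR1 senses sphingosine 1-phosphate and lets cells leave lymphoid organs.

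Promoter sequences were at hand from RefSeq for 4 of the 5 genes, in the build GRCm38.p6, with S1pr1 not among them. They are printed because they show how unlike the starts of these genes are in base composition, with the Cxcr4 start the only one rich in CG. Each line gives the 250 bases before an annotated start, 5′ to 3′ on the gene's strand, with capitals marking CG dinucleotides. In order they lie at chr9:114496545-114496794 (minus strand), chr17:8235793-8236042 and chr17:8242276-8242525 (plus strand, 2 annotated starts of Ccr6), chr9:120091883-120092132 (plus strand) and chr1:128592300-128592549 (minus strand). The peaks below are in mm39, another build, so no promoter was placed under a peak.
Ccr4: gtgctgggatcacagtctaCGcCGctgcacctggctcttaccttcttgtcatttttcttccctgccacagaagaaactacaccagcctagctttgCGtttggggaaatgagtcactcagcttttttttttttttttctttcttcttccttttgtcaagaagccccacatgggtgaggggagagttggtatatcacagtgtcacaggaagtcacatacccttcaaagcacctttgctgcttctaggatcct
Ccr6 start 1: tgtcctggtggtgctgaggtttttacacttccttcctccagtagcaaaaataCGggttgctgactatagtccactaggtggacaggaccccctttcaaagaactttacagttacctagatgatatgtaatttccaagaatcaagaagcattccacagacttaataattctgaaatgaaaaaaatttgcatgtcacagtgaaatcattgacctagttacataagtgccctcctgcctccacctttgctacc
Ccr6 start 2: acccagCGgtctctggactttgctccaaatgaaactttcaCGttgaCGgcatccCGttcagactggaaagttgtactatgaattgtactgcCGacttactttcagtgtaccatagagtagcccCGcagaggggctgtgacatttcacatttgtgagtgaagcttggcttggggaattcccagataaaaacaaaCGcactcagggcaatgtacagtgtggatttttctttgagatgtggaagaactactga
Ccr8: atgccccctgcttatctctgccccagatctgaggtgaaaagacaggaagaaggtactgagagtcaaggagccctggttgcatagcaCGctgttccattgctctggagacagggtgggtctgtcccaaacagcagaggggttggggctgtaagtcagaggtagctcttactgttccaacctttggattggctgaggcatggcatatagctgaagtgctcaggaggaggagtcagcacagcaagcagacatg
Cxcr4: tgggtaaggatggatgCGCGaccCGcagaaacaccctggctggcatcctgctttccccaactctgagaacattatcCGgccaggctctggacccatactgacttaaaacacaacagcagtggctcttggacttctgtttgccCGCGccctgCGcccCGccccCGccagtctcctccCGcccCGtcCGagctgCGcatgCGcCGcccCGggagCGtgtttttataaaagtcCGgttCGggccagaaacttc

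The Ccr4 stretch held 3 CG dinucleotides, the Ccr6 stretches 1 and 7, the Ccr8 stretch 1 and the Cxcr4 stretch 19, against a median of 6 over 32851 mouse promoters of the same length. Of all promoters, 71.0% held at least as many CG as Ccr4 and 92.1% at least as many as Ccr8, and 19.7% at least as many as Cxcr4. The share of G and C was 46.4% for Ccr4, 41.2% and 46% for Ccr6, 53.6% for Ccr8 and 61.2% for Cxcr4 (median of all promoters 52.4%). On both strands, the searched letters were TGTGGT (a RUNX core, in 14.0% of promoters), TGTTTAC (a forkhead core, in 3.17%), GGGCGG (the GC box, in 32.7%) and TGCACNC or TGCGCNC (the core of the metal response element, in 21.4%). Cxcr4 held 3 GC boxes and 1 metal response core, which can overlap each other. The Ccr4, Ccr6 and Ccr8 stretches held none of these letters. A match is a description of the letters and no evidence of binding.

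In the controls, all 5 windows held H3K27ac peaks. Per 50 kb of window, mean control coverage was 19973 bases for S1pr1, 11552 for Ccr8, 9166 for Ccr4, 9129 for Ccr6 and 7601 for Cxcr4. These levels lay at percentiles 94.8, 87.5, 82.9, 82.8 and 78.9 among the 7348 tiles of 50 kb with H3K27ac peaks in every library. S1pr1 lay above the others in every control library, while neighbours in the order from Ccr8 to Cxcr4 overlapped between libraries. Summed over the windows, coverage was 56315, 59106 and 62054 bases in controls 1 to 3 and 47394, 60771 and 49036 bases in knockouts 1 to 3, so that the groups overlapped. Controls had 40, 33 and 41 peaks in the windows against 28, 26 and 23 for knockouts, with no overlap. The whole lists differed in this way too, with 27986 to 32012 peaks in controls and 21326 to 28289 in knockouts. Their median peak widths were 812 to 846 bp in controls and 901 to 1063 bp in knockouts. The peak count is therefore not read as a result about the receptors. The receptors did not move together within the summed coverage. Ccr4 and Ccr6 coverage was lower in every knockout than in every control, S1pr1 coverage was higher, and Ccr8 and Cxcr4 overlapped. Among tiles of 50 kb with H3K27ac peaks in at least 3 libraries, 13.5% had every knockout below every control and 8.44% every knockout above.

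**Figure D1:**
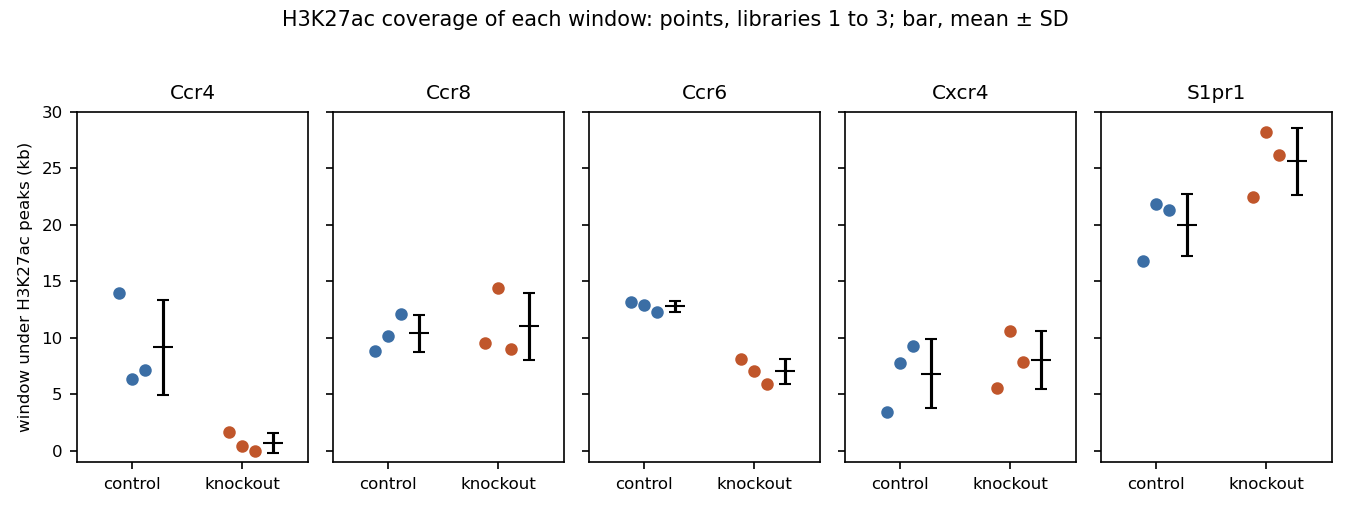
Kilobases of each receptor window under H3K27ac peaks, with 1 point per library (controls blue, knockouts orange) and a bar for the mean ± SD of 3 libraries. The groups do not overlap for Ccr4 and Ccr6 (knockouts lower) and for S1pr1 (knockouts higher).

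Ccr4 had the largest relative difference of the 5. Its window held 14004, 6342 and 7153 bases under H3K27ac peaks in controls 1 to 3 and 1689, 419 and 0 bases in knockouts 1 to 3. Control 1 was the highest, knockout 3 had no peak in the window, and the groups did not overlap. The means were 9166 ± 4209 and 703 ± 880 bases (SD, n = 3 each), a ratio of control to knockout of 13.0, with an exact permutation p of 0.1 (two-sided), the smallest that 3 against 3 libraries allow. The controls had 13, 6 and 8 peaks there and the knockouts 2, 1 and 0. As background, 13.5% of the 9952 tiles of 50 kb with H3K27ac peaks in at least 3 libraries had every knockout below every control, so non-overlap alone is frequent in these lists, and 8.44% had every knockout above. With only the stronger peaks of each list, the upper 50% by −log10 p, the difference between the Ccr4 means was -3588 bases, against -8464 with all peaks.

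Merging the peaks of all libraries gave 13 H3K27ac regions in the Ccr4 window. Of these, 3 had a peak in every control and in no knockout, where 2.66% of the 37573 merged regions of the genome did. No Ccr4 region had a peak in every library. The strongest of the 3, chr9:114305491-114307025, reached 21.2, 16.3 and 15.6 times the genome-wide background in controls 1 to 3, where this multiple is the pileup of fragments at the summit read back from the authors' fold and −log10 p. The second, chr9:114302024-114303205, reached 10.8, 12.9 and 11.8 times, and the weakest, chr9:114304054-114305255, reached 9.72, 9.58 and 9.48 times. All 3 lie next to each other in 1 bin of 10 kb. Of the bases under peaks in all controls, 3561 of 5250 (67.8%) lay under no knockout peak, against 3.64% over the genome.

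The absence of a knockout peak sets an upper bound on the signal. At a local background of 2 times the genome-wide level, which is near that of the controls at chr9:114305491-114307025 (1.87, 2.48 and 1.74 times), a peak needed 17, 19 and 17 fragments in knockouts 1 to 3, or 6.66, 6.24 and 7.08 times the genome-wide background. The control summits there lay above those levels. The local background of the knockouts at that place is not known, and at their own peaks in the window it was 1.46 and 7.30 times in knockout 1 and 3.5 times in knockout 2. At 8 times the levels would be 16.5, 15.8 and 17.1 times the genome-wide background, all above the summit of control 3 and, for knockouts 1 and 3, above that of control 2. Signal below the level would not be seen in a peak list.

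Of the other 3 leading Ccr4 regions, 2 had a peak in a knockout. Region chr9:114323553-114326916 reached 25.7, 16.3 and 16.1 times the genome-wide background in controls and 18.0 and 12.1 times in knockouts 1 and 2, with no peak in knockout 3. Knockout 1 thus lay within the control range at this region, and its local background there was 7.30 times the genome-wide level, above the 5.62, 3.10 and 3.26 times of the controls. Region chr9:114315827-114317725 reached 13.5, 12.9 and 15.2 times in controls and 7.44 times in knockout 1, with no peak in knockouts 2 and 3. Region chr9:114300130-114301517 had peaks in controls 1 and 3 only, at 11.5 and 7.11 times.

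**Figure D2:**
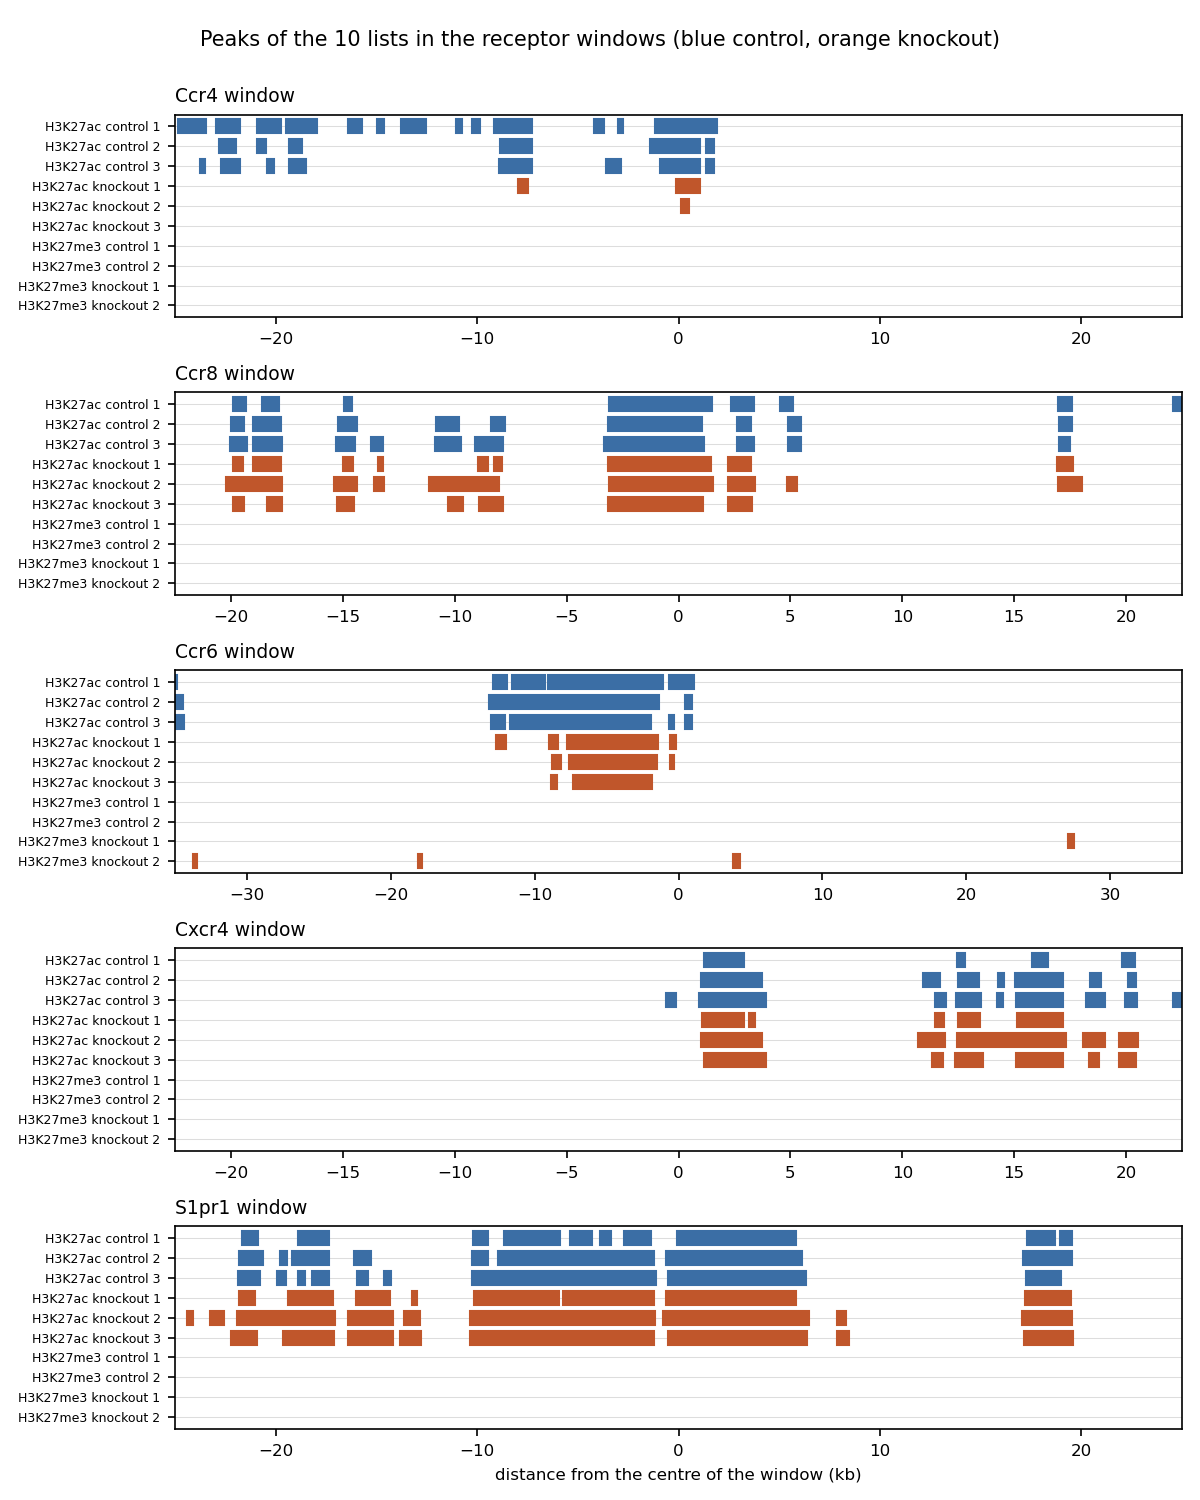
Peaks of the 10 lists in each receptor window, 1 line per library and mark (controls blue, knockouts orange), against distance from the window's centre in kb. The H3K27ac lines of Ccr4 are nearly empty in the knockouts, the main Ccr6 block is shorter in the knockouts, the main S1pr1 and Ccr8 blocks are in every library, and the H3K27me3 lines are empty except for 4 short Ccr6 peaks.

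The Ccr4 difference was called in 1 bin, with a p that is not independent of the filter, as described below. Bases under peaks in bins of 10 kb were compared with limma on log2(bases + 100) over 19295 bins of the genome, of which 2.25% were called lower and 0.58% higher in knockouts at a Benjamini-Hochberg adjusted p under 0.05. Of the 27 receptor bins, 19 were covered well enough to test, 2 fell and 0 rose. At an unadjusted p under 0.05 there were 5 lower and 2 higher, where the genome had 10.9% and 5.99% of its bins, and the receptor bins had a median log2 change of 0.07 against -0.05 over all bins. Bin chr9:114300001-114310000 of Ccr4, which holds the 3 regions without a knockout peak, had 6003, 1920 and 2392 bases in controls and 0 in each knockout. Its log2 change was -4.99 ± 0.577 (SE) with an adjusted p of 0.0226 in limma, a size that depends on the added 100 bases because the knockouts were at 0. The bin met the coverage filter through the controls alone, the group where it was high, so this p is not independent of the filter. Over 13 other settings the bin was called in 6, with adjusted p from 0.0158 to 0.130 in limma. Without controls 1, 2 or 3 the adjusted p was 0.0980, 0.130 and 0.117, and without knockouts 2 or 3 it was 0.0829 and 0.0501.

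Ccr6 held the other 10 kb bin with an adjusted p under 0.05 in limma, described below. Its window held 13205, 12889 and 12247 bases under H3K27ac peaks in controls and 8161, 7078 and 5960 in knockouts. The controls lay close together and above every knockout. Of the 9952 tiles of 50 kb, shorter than this window of 70 kb, 13.5% had this order. The means were 12780 ± 488 and 7066 ± 1101 bases (SD, n = 3 each), a ratio of control to knockout of 1.81, with an exact permutation p of 0.1 (two-sided).

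Unlike at Ccr4, acetylation at Ccr6 remained in every knockout, over a shorter stretch. Of the 3 regions that overlap the window, 2 had peaks of every library, but at chr17:8427968-8430581 the knockout peaks lay outside the window. The main one, chr17:8451815-8463899, covered 11296, 11812 and 10820 bases in controls and 7722, 6752 and 5960 in knockouts, and its summits lay within 144 bp of each other in all 6 libraries. Its summit reached 52.8, 46.9 and 61.6 times the genome-wide background in controls and 43.5, 29.9 and 25.8 times in knockouts, with each knockout below each control. Among the 12819 regions of the genome with a peak in every library, 11.6% had every knockout summit below every control summit and 4.38% had every one above. A core of 5388 bases, chr17:8457674-8463061, lay under peaks in every library. A flank of 2321 bases, chr17:8453395-8455715, lay under peaks in all controls and no knockout. Over the window, 3689 of the 10964 bases common to the controls (33.6%) lay under no knockout peak, and most of them lay on the side of the core with the lower coordinates.

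The other Ccr6 regions were lower as well. Region chr17:8464309-8466096 covered 1788, 514 and 845 bases in controls and 439, 326 and 0 in knockouts, with every knockout below every control. Over the genome, 12.7% of the 22443 regions with a peak in at least 3 libraries had covered bases ordered this way, and 10.2% the other way. Region chr17:8427968-8430581 crosses the window's start and reached 30.9, 27.3 and 37.0 times the genome-wide background in controls and 17.2, 11.5 and 5.83 times in knockouts. It was present in all 6 libraries, but the knockout peaks ended before the window began.

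In limma, bin chr17:8450001-8460000 of Ccr6 had 7397, 8186 and 7759 bases in controls and 4123, 3260 and 2801 in knockouts, a log2 change of -1.21 ± 0.145 (SE, adjusted p = 0.0230). It was called in 6 of 13 other settings, with adjusted p in limma from 0.00667 to 0.130. Without controls 1, 2 or 3 the adjusted p was 0.0980, 0.130 and 0.117, and without knockouts 2 or 3 it was 0.0855 and 0.0648. The Ccr6 bin with the largest change, chr17:8430001-8440000, had a log2 change of -2.24 with an adjusted p of 0.136 in limma. It had no covered base in any knockout and met the coverage filter through the controls alone.

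**Figure D3:**
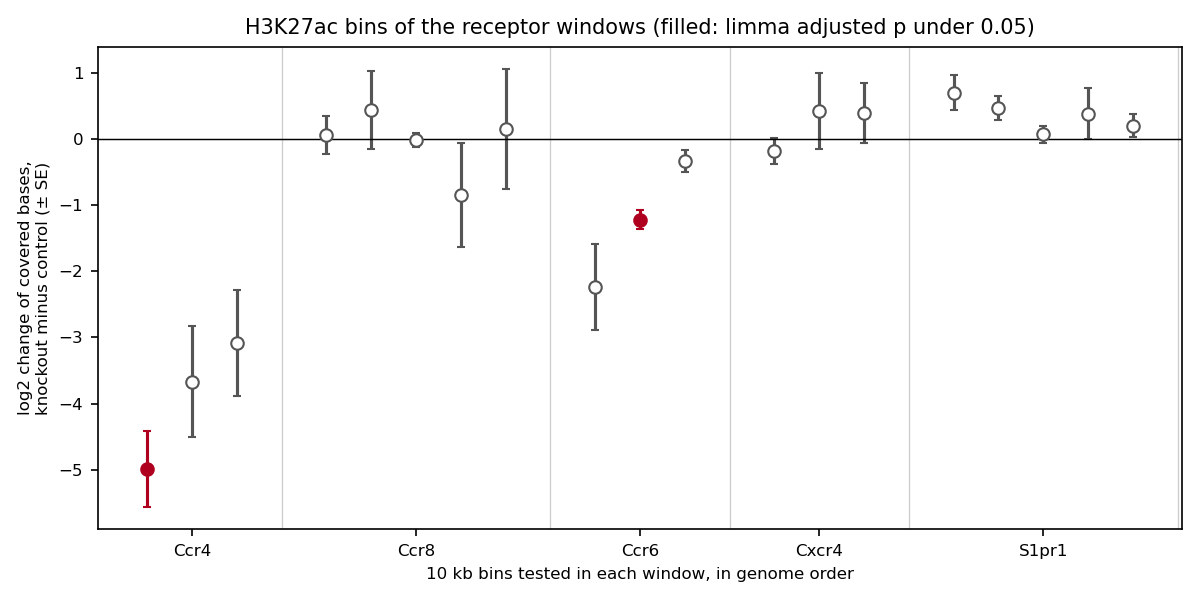
Log2 change (knockout minus control, ± SE) of bases under H3K27ac peaks in the 19 tested 10 kb bins, in genome order within each receptor window, filled where the adjusted p in limma was under 0.05. The 2 bins past the adjusted p of 0.05 are 1 of Ccr4 (-4.99) and 1 of Ccr6 (-1.21), and the S1pr1 bins with the largest increases stay short of it. The Ccr4 bin met the coverage filter through the controls alone.

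In bins of 5 kb, 31 receptor bins were tested, 5 fell and 0 rose in limma (2 higher at an unadjusted p under 0.05), against 2.79% lower and 0.785% higher of the 26380 bins of the genome. They were 3 bins of Ccr4, starting at chr9:114300001, chr9:114305001 and chr9:114320001, and 2 of Ccr6, starting at chr17:8455001 and chr17:8465001. Adjusted p ranged from 0.0290 to 0.0425 in limma. The bins starting at chr9:114300001, chr9:114305001 and chr17:8465001 had no covered base in any knockout and met the filter through the controls alone. Bin chr17:8450001-8455000 of Ccr6 had 2632, 3186 and 2759 bases in controls and 741, 0 and 0 in knockouts, but was not called. Its log2 change of -3.90 (adjusted p = 0.0604 in limma) was the largest of Ccr6, against -0.67 for the bin starting at chr17:8455001. The called bins thus do not show where the Ccr6 change was largest.

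S1pr1 moved the other way. Its window held 16785, 21854 and 21282 bases under H3K27ac peaks in controls and 22404, 28218 and 26162 in knockouts. Every knockout lay above every control, but knockout 1 exceeded control 2 by only a small margin. Of the 9952 tiles of 50 kb with H3K27ac peaks in at least 3 libraries, 8.44% had this order. The means were 19974 ± 2776 and 25595 ± 2948 bases (SD, n = 3 each), 28.1% higher in knockouts, with an exact permutation p of 0.1 (two-sided).

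The leading S1pr1 region was among the strongest peaks of every list. Region chr3:115504214-115511482 covered 5926, 6735 and 6861 bases in controls and 6451, 7269 and 6910 in knockouts. Its summit reached 71.5, 90.5 and 95.3 times the genome-wide background in controls and 96.7, 122 and 87.8 times in knockouts, so the groups overlapped. A core of 5924 bases, chr3:115504903-115510826, lay under peaks in every library. Region chr3:115494628-115503865 covered 6500, 8502 and 9123 bases in controls and 8703, 9153 and 9173 in knockouts, also with overlap.

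Most of the additional bases were on the side of the S1pr1 window with the lower coordinates. Region chr3:115491154-115492181 had no peak in any control and 287, 814 and 1028 bases in knockouts, at 7.83, 9.19 and 14.2 times the genome-wide background. It was the only receptor region with a peak in every knockout and no control, a class that holds 0.809% of the regions of the genome. Region chr3:115482748-115487956 covered 2358, 3358 and 2679 bases in controls and 2964, 4876 and 3836 in knockouts. Region chr3:115488581-115490813, chosen after its values were seen, covered 0, 845 and 896 bases in controls and 1692, 2220 and 2233 in knockouts. On the other side, region chr3:115522031-115524562 covered 2001, 2414 and 1723 bases in controls and 2307, 2483 and 2396 in knockouts, with overlap. Of the 22305 bases under peaks in all knockouts, 1280 (5.74%) lay under no control peak, against 2.36% over the genome.

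No S1pr1 bin passed the test. Bin chr3:115480001-115490000 had a log2 change of 0.70 ± 0.264 (SE) with an adjusted p of 0.240 in limma. In 5 kb bins, chr3:115490001-115495000 had 210, 244 and 601 bases in controls and 1146, 1970 and 2214 in knockouts, a log2 change of 2.07 ± 0.435 (SE, adjusted p = 0.0556 in limma). A p that misses the threshold does not show that the values were alike.

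Ccr8, which like Ccr4 is a receptor of tissue-homing regulatory T cells, differed by less than the spread between libraries. Its window held 8875, 10211 and 12106 bases in controls and 9578, 14420 and 9031 in knockouts, with knockout 2 the highest and the groups overlapping. The means were 10397 ± 1624 and 11010 ± 2966 bases (SD, n = 3 each), with a two-sided exact permutation p of 0.8. Its main region, chr9:119919156-119924021, covered 4593, 4177 and 4472 bases in controls and 4635, 4618 and 4271 in knockouts, with summits within 109 bp of each other. The length was kept, while the summit reached 56.6, 47.4 and 54.5 times the genome-wide background in controls and 44.3, 37.8 and 35.0 times in knockouts, with every knockout below every control, as in 11.6% of such regions. No test was made of that height, which is read from the authors' peak values.

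The other Ccr8 regions gave no common direction. Region chr9:119924691-119925892 covered 1022, 614 and 757 bases in controls and 1045, 1202 and 1073 in knockouts, every knockout above every control, as in 10.2% of regions. Region chr9:119939434-119940515 covered 622, 567 and 503 bases in controls and 693, 1042 and 0 in knockouts, with no peak in knockout 3. Region chr9:119902272-119904762 had a peak in every library, and region chr9:119911353-119914747 in all but control 1. Bin chr9:119930001-119940000 had the largest change of the Ccr8 window, a log2 change of -0.84 with an adjusted p of 0.667 in limma.

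Cxcr4 overlapped between the genotypes as well. Its window held 3446, 7810 and 9266 bases in controls and 5562, 10636 and 7883 in knockouts, control 1 being the lowest. The means were 6841 ± 3029 and 8027 ± 2540 bases (SD, n = 3 each), with a two-sided exact permutation p of 0.6. Peaks of all libraries met at 2 of its 7 regions. Region chr1:128518417-128521413 covered 1790, 2751 and 2987 bases in controls and 2138, 2751 and 2787 in knockouts. Region chr1:128529861-128534798 covered 1062, 3447 and 3513 bases in controls and 3045, 4868 and 3338 in knockouts. Summit heights overlapped at both, at 45.5, 45.5 and 63.5 against 51.3, 51.6 and 39.5 times the genome-wide background for the first. Regions chr1:128535557-128536553, chr1:128537184-128538017 and chr1:128528217-128529460 were weaker and missing from some libraries. Bin chr1:128520001-128530000 had the largest change, a log2 change of 0.43 with an adjusted p of 0.767 in limma.

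**Figure D4:**
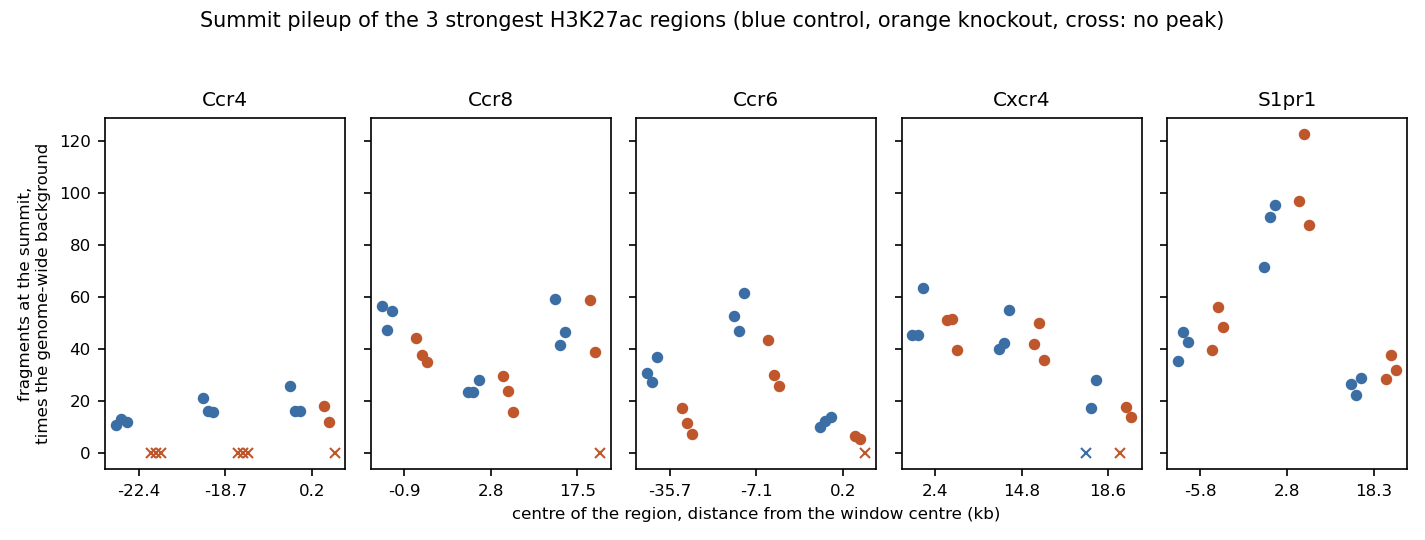
Fragments at the summit, as multiples of the genome-wide background, for the 3 H3K27ac regions of each window with the highest mean percentile of −log10 p, 1 point per library (controls blue, knockouts orange, crosses for no peak), with each region labelled by its distance from the window centre in kb. Knockouts lie below controls at the main Ccr6 and Ccr8 regions and overlap controls at the main S1pr1 and Cxcr4 regions.

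The same window bases were also expressed as shares of the 5 windows, which adds no separate evidence. Ccr4 held 24.9%, 10.7% and 11.5% of the H3K27ac bases of the 5 windows in controls and 3.56%, 0.689% and 0% in knockouts. The control and knockout shares (mean ± SD, n = 3) were 21.7 ± 1.86% and 13.7 ± 3.08% for Ccr6 and 33.7 ± 3.62% and 49.0 ± 3.78% for S1pr1. These 3 shares did not overlap between the groups, each with an exact permutation p of 0.1 (two-sided), the smallest possible. How often such shares fail to overlap for other genes was not computed. The shares of Ccr8 (17.5 ± 1.89% and 20.8 ± 2.70%) and Cxcr4 (11.4 ± 4.67% and 15.1 ± 3.00%) overlapped. The shares sum to a whole, so a lower share of 1 gene raises the others.

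H3K27me3 was nearly absent from the receptors. No list had an H3K27me3 peak in the Ccr4, Ccr8, Cxcr4 or S1pr1 window, in either genotype. Such absence was frequent, since 5358 of the 7348 tiles of 50 kb with H3K27ac in every library (72.9%) had no H3K27me3 peak. Around Ccr4, the nearest peak lay 38.8 and 35.7 kb outside the window in controls and 45.3 and 35.7 kb outside in knockouts. Around Ccr8, the nearest peak lay 26.3 to 26.4 kb outside in all 4 lists. It lay 68.0 to 96.6 kb outside for S1pr1 and 94.4 to 889 kb outside for Cxcr4. The knockouts, which had few H3K27ac peaks at Ccr4, thus had no called H3K27me3 peak there.

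Ccr6 was the exception, with 4 short H3K27me3 peaks, all in knockouts. Of the 8685 tiles of 70 kb, the length of the Ccr6 window, with an H3K27me3 peak in at least 2 libraries, 6.39% had a peak in both knockouts and no control, and 0.023% the reverse. In the main setting the median log2 change of this mark was 0.78 over the 21034 bins of 10 kb tested. It ran from -0.09 with lists of equal length to 2.25 with a pseudocount of 10, and was 0.26 without control 1. The tile shares include control 1, whose short list is described below. Knockout 1 had 1 Ccr6 peak, chr17:8492108-8492474. Knockout 2 had 3, chr17:8431254-8431517, chr17:8446909-8447153 and chr17:8468778-8469265. No peak of one knockout overlapped a peak of the other, and by −log10 p they lay at percentiles 4.49, 11.1, 1.38 and 36.3 of their own lists. The covered bases were 0 and 0 in controls and 367 and 997 in knockouts, means of 0 and 682 ± 445 (SD, n = 2 each), with an exact permutation p of 0.333 (two-sided), the smallest that 2 against 2 allow. Control 1 of this mark stood apart from the other lists, with 7512 peaks against 36436 to 57728, and without it the Ccr6 values were 0 in control 2 and 682 on average in knockouts. The −log10 p of that list ran from 2.02 to 7.21, while the other 3 began at 9.0 or above, so that absence of a peak does not mean the same in it as in the others. No receptor bin was covered well enough for limma in this mark.

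The windows were compared 10 times in all, 5 genes in 2 marks, and none of those exact permutation tests can pass 0.05 at these numbers of libraries. Properties of the lists differed as well, and their part in the results was not tested. H3K27ac lists held 27986 to 32012 peaks in controls and 21326 to 28289 in knockouts. Depths were read back from them with the narrowest peak of a list taken as the fragment length. They were 8.49 to 12.4 fragments per kb in controls and 9.10 to 11.0 in knockouts, which overlap. The background depth was 13.1 to 16.1 fragments per kb for controls and 20.6 to 20.7 for knockouts, so that it and the genotype cannot be told apart. It was nearly equal in the knockouts, and in controls 2 and 3 (13.1 each). Whether lists shared a background library is not stated in the labels and was not tested. Lists that shared one would not be fully independent. At the main Ccr6 region, the local background was 5.09, 4.03 and 3.91 times the genome-wide level in controls and 2.72 times in each knockout. At the tallest peaks of Ccr8 region chr9:119902272-119904762 it was 9.16, 5.66 and 4.97 times in controls and 18.2, 12.5 and 7.48 times in knockouts. When only peaks of at least 20 fragments and 3 times the genome-wide background were kept, an alternative chosen after seeing the data, the difference in bases was -8555 for Ccr4, -6127 for Ccr6 and 5822 for S1pr1, against -8464, -5714 and 5621 with all peaks.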

How the data were processed

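Regulatory T cells of control and Slc31a1-deleted chimeras were profiled by CUT&Tag, with 1 peak list per sample in 10 of 14 samples. The submitters' processing notes name Bowtie2 2.2.4, deepTools 3.5.1, MACS2, ChIPseeker 1.30.3 and HOMER 4.11, with build mm39. Their settings are not given in the sources used here. For each peak the authors deposited its position, a score equal to 10 times the −log10 p with decimals dropped, a fold over local background as a ratio, and p and q values as −log10. These are the authors' own values and served to describe, rank or filter peaks within a list.

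Bases under peaks were summed per library and window. Means were compared by two-sided exact permutation tests, with no adjustment. Peaks of a mark that overlapped by at least 1 bp were merged into regions. Bases per 10 kb bin were tested as log2(bases + 100), with each library's median over bins that all libraries covered set to 0, with limma 3.58.1 in R 4.3.3 (trended, robust variances), over bins covered in at least 3 H3K27ac or 2 H3K27me3 libraries, with Benjamini-Hochberg adjustment over all bins. Changes are knockout minus control. The procedure was tested on simulated data. Fragments at a summit and the genome-wide background were read back from the fold and −log10 p, which gave whole fragments (within 0.02%) for 98.7 to 99.9% of H3K27ac peaks. Other steps used Python 3.11.15.

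The 5 genes, windows and lists were chosen with earlier results of these data known. Named were up to 5 regions per window with the highest mean percentile of −log10 p, regions found in every library of only one genotype, bins past the threshold and the bin of largest change in each window. A planned list of other homing genes, genes of like pattern and a check of cell type markers were not run, since no mm39 gene positions were used. Other settings tried were pseudocounts of 10 and 1000, no filter, no centring, quantile normalization, 5 kb bins, equal-length lists, the stronger peaks of each list, windows widened by 10 kb, bases per Mb, a stricter overlap, a replicate block and leaving out each library.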

Additional observations from a re-analysis of the deposited data

How the results depend on the processing

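The Ccr4, Ccr6 and S1pr1 differences in H3K27ac bases kept their direction in all 12 alternatives. For some of these the outcome was fixed in advance. A difference between groups that do not overlap cannot reverse when 1 library is left out, and a replicate block leaves it unchanged by construction. Leaving out 1 library gave -9876 to -6045 for Ccr4, -6261 to -5161 for Ccr6 and 4027 to 7216 for S1pr1. With only the stronger peaks of each list, the upper 50%, the Ccr4 difference was -3588 against -8464. The S1pr1 difference was 5620 against 5621 in that setting, but its groups overlapped, with 19661 bases in knockout 1 and 20650 in control 2. The Ccr8 difference (612 bases) was -1224 with only the stronger peaks of each list and ranged from -1093 to 1602 when 1 library was left out, below 0 without control 1 (-149) or knockout 2 (-1093). The Cxcr4 difference (1186 bases) ranged from -511 to 2419, below 0 without control 1 (-511) or knockout 2 (-118). The H3K27me3 difference at Ccr6 (682 bases) was 0 with lists of equal length and with only the stronger peaks of each list, and 367 to 997 when 1 library was left out. Receptor regions with H3K27ac in every control and no knockout numbered 3, but 1 with only the stronger peaks of each list and 3 to 5 when 1 library was left out (5 without control 2). The reverse class held 1, but 0 with the stronger peaks and 1 to 2 when 1 library was left out (2 without knockout 1). For H3K27me3, regions in every knockout and no control were 0, and 0 to 3 when 1 library was left out (3 without knockout 1, 1 without knockout 2). Receptor bins lower in knockouts numbered 2, against 0 with a pseudocount of 10, 4 with a pseudocount of 1000, 4 with quantile normalization, 5 in 5 kb bins and 0 to 4 when 1 library was left out (4 without knockout 1, 0 without any other). No receptor bin was called higher in any setting. Where a value changed, the cause was not tested.

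With a replicate block, 0 receptor bins were called lower, with an adjusted p in limma of 0.0537 for the Ccr4 bin and 0.0519 for the Ccr6 bin. Under the block the window differences were -8464, 612, -5714, 1186 and 5621 bases for Ccr4, Ccr8, Ccr6, Cxcr4 and S1pr1. These values cannot change with a block, because the mean of the replicate differences equals the difference of the means. The exact sign-flip test used there can give no p below 0.25. To look for pairing, each genotype's mean was subtracted from the log2 values of every bin, and only the remaining deviations were correlated. The deviations of same-numbered H3K27ac libraries correlated at 0.246, 0.0530 and 0.0102, against -0.213 to 0.177 for libraries of different number. For same-numbered H3K27me3 libraries the value was 0.00261. It cannot inform, since with 2 libraries per group every pair has a correlation of the same size. The main tests had no block because the labels do not say that a number marks a shared batch. Whether the samples are paired stays undecided.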
